A study of Mus musculus with 8 samples.

Results

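The genes described here are Tnf, its receptors Tnfrsf1a and Tnfrsf1b, the NF-kB subunits Nfkb1, Nfkb2, Rela and Relb, and the feedback genes Nfkbia, Tnfaip3 and Birc3. They were chosen by gene symbol, and all 10 were found among the 24860 genes of the deposited table. Expression was measured by RNA sequencing of total RNA in 8 mouse retina libraries. 4 libraries came from retinas given AAV2-shCX36, an adeno-associated virus carrying a short hairpin RNA against connexin 36, and 4 from retinas given AAV2-scramble, the same kind of virus with a control hairpin. Connexin 36 is the main protein of gap junctions between neurons, and adeno-associated virus of this serotype, placed in the eye, chiefly reaches retinal ganglion cells, which send the output of the retina to the brain. The labels annotate every library to these cells and give retina as the tissue. All 8 libraries therefore share the vector and a hairpin. Strain, age, sex, injury and time after treatment are not given in the sources used here, and nothing in them ties a library to an animal or a pool of animals. The p-values therefore reflect only differences between libraries of a group, which may be technical.

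TNF is a cytokine made in the nervous system largely by activated microglia and macrophages. It binds 2 receptors. TNFR1, the product of Tnfrsf1a, is present on most cells and can lead either to NF-kB activation or to cell death, whereas TNFR2, the product of Tnfrsf1b, lacks a death domain and is found mainly on immune, glial and endothelial cells. NF-kB proteins are held in the cytoplasm by inhibitors such as IkB-alpha, the product of Nfkbia, until a kinase complex marks the inhibitor for destruction. The freed dimers enter the nucleus and induce inflammatory genes together with their own brakes, among them Nfkbia, Tnfaip3 and Birc3. In the retina TNF has been studied as a mediator of ganglion cell loss in models of glaucoma.

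Values are FPKM, fragment counts corrected for transcript length and library size, which allow levels to be compared between genes. Each log2 difference subtracts the mean log2(FPKM + 1) of AAV2-scramble from that of AAV2-shCX36, a scale that understates changes of genes with low values. Tests covered the 12858 genes whose mean reached 1 FPKM, and a gene was called when its Benjamini-Hochberg adjusted p in limma was under 0.05. Column sums were 282721 to 294055 FPKM, and 12331 to 13089 genes per library were at 1 FPKM or more. Gjd2, the gene of connexin 36, had 17.03, 13.996, 14.6 and 16.6 FPKM in AAV2-shCX36 libraries 1 to 4, against 38.7, 35.9, 17.4 and 18.2 FPKM in AAV2-scramble libraries 1 to 4. Its groups did not overlap (two-sided exact permutation p = 0.0286, the smallest that 4 against 4 libraries allow), and its adjusted p in limma was 0.148.

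The AAV2-scramble libraries were not alike, and the TNF and NF-kB genes were touched by this. AAV2-scramble 2 and 4 correlated at 0.946 over all tested genes, whereas the lowest correlation between any pair of AAV2-shCX36 libraries was 0.986. The summed level of 10 microglia markers was 231, 233, 231 and 364 FPKM in AAV2-shCX36 libraries 1 to 4, against 885, 832, 446 and 196 FPKM in AAV2-scramble libraries 1 to 4. None of these 10 markers was at 0 in any library. In limma 1 of them fell (P2ry12), where 2.52% of all tested genes fell. An unadjusted p under 0.05 in limma was reached by 7, against 22.6% of all tested genes. 12 ganglion cell markers summed to between 2881 and 3102 FPKM in AAV2-shCX36, against 1748 to 3025 FPKM in AAV2-scramble, and none of them was at 0. The libraries also held transcripts of other retinal cells, with 10 photoreceptor markers summing to between 1768 and 2592 FPKM in AAV2-shCX36, against 3202 to 4592 FPKM in AAV2-scramble.

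Of the 10 genes, 1 was called, Tnfaip3, and it fell in AAV2-shCX36. Over all tested genes 4.76% were called in either direction and 2.52% were called lower. 8 of the 10 passed the filter on low values, Nfkb2 and Birc3 being below it. The groups did not overlap in Tnfaip3, and they overlapped in each of the other 9 genes, whereas 15.9% of all tested genes had groups that did not overlap, 7.05% with AAV2-shCX36 lower and 8.85% with AAV2-shCX36 higher. The median log2 difference of the 8 tested genes was -0.13, against 0.01 over all tested genes.

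**Figure D1:**
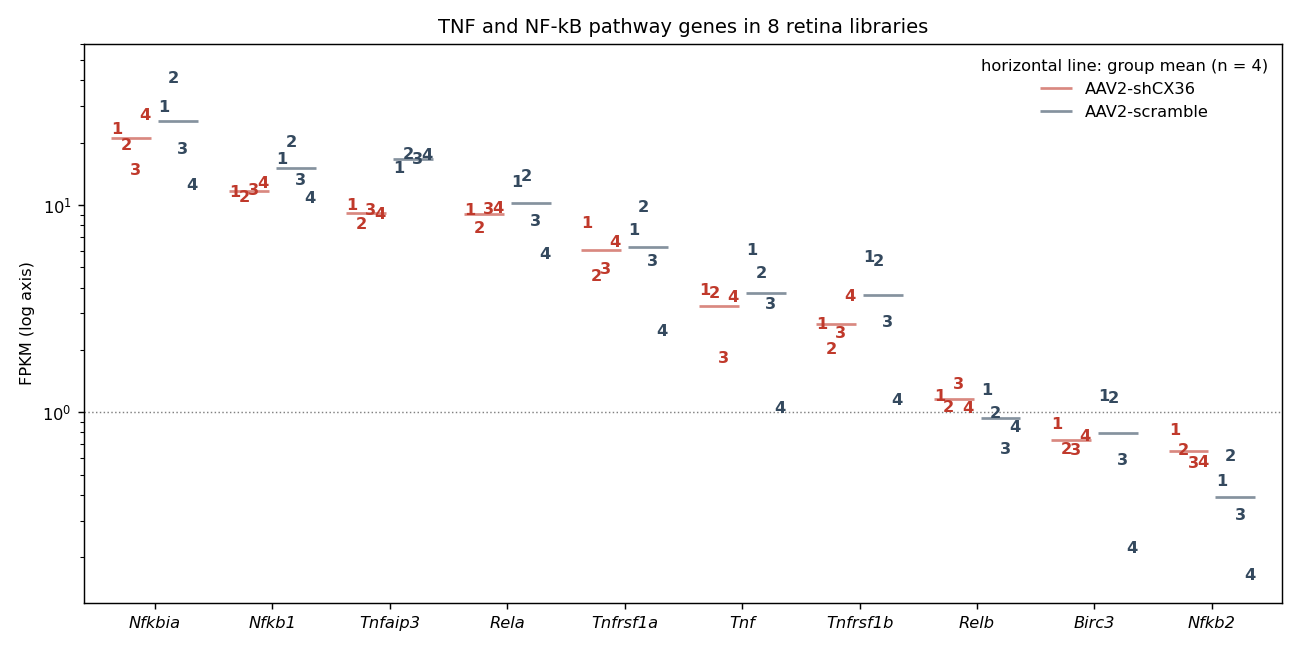
FPKM of each of the 10 genes on a log axis, with AAV2-shCX36 left of AAV2-scramble for each gene, digits giving the library number and horizontal lines the group means (n = 4). The dotted line marks 1 FPKM. Tnfaip3 is the gene whose groups are apart, and AAV2-scramble 4 is the lowest library in 8 of the 10 genes.

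Tnfaip3 encodes A20, a ubiquitin-editing enzyme that ends NF-kB signalling after TNF, interleukin 1 and Toll-like receptor stimulation. The gene lies on the minus strand of GRCm38 chromosome 10 from 19000910 to 19015657 and overlaps no other annotated gene. It had 10.01, 8.10, 9.46 and 9.05 FPKM in AAV2-shCX36 libraries 1 to 4, against 15.0, 17.5, 16.7 and 17.3 FPKM in AAV2-scramble libraries 1 to 4. Every AAV2-shCX36 library was therefore below every AAV2-scramble library, and the values within each group were close together. The mean was 9.16 ± 0.803 FPKM in AAV2-shCX36 and 16.6 ± 1.16 FPKM in AAV2-scramble (SD, n = 4 each), or 55.1% of the control mean. The log2 difference was -0.80 ± 0.08 (SE; 95% interval -0.98 to -0.62; adjusted p in limma 0.00168), which placed Tnfaip3 at rank 4 by p among the 324 genes that fell. By size of the log2 difference Tnfaip3 was at rank 40 among them. Its two-sided exact permutation p was 0.0286. The difference was -0.76 against AAV2-scramble 1 and 2 alone and -0.83 against AAV2-scramble 3 and 4 alone.

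NF-kB acts on many of its targets through short kappaB sequences near the transcription start, and the promoter windows shown were picked because they hold such a match. RefSeq windows of GRCm38.p6, from 250 bases before to 50 bases after each start, were searched on both strands for the kappaB consensus, whose matches are in capitals. The windows printed, 1 for each gene with a match, are Tnfaip3 at chr10:19015361-19015660 on the minus strand, Nfkbia at chr12:55492598-55492897 on the minus strand and Nfkb2 at chr19:46304487-46304786 on the plus strand, each written 5′ to 3′.
Tnfaip3: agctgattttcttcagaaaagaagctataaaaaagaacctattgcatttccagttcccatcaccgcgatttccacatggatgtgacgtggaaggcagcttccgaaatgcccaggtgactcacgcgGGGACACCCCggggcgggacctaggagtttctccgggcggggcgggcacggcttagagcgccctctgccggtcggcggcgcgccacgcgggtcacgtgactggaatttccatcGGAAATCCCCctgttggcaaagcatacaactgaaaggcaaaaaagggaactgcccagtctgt
Nfkbia: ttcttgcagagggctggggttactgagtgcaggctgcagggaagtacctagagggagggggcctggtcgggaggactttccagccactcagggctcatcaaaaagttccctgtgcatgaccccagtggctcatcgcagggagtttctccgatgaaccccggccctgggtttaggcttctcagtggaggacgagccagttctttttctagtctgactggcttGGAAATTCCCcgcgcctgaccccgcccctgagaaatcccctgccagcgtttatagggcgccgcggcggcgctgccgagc
Nfkb2: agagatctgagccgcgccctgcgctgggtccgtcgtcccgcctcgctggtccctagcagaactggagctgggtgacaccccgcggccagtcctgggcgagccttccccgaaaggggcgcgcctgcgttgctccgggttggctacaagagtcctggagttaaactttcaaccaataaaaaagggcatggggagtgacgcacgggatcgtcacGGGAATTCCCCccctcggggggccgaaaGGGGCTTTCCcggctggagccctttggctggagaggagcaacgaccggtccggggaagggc
The Tnfaip3 window holds 2 matches, starting at positions -125 and -12 from the transcription start, with no position 0. The Nfkbia window holds 1 match, at -29, and the Nfkb2 window 3 matches, at -39, -38 and -11, the first 2 of which overlap. Windows were found for 8 of the 10 genes, 11 windows in all. Of these 5 held a match, and the genes with a match in any window were Tnfaip3, Nfkbia and Nfkb2. The window of Birc3 and another window of Tnfaip3, at chr10:19011914-19012213, held none. Of all 32851 RefSeq windows, 4.51% held a match. A stricter kappaB form was found in windows of Nfkbia and Nfkb2 and in 1.47% of all windows. Interferon-type elements were also searched on both strands. The core of the interferon-stimulated response element was found in the window of Tnfrsf1b and in 3.44% of all windows, and the gamma-activated form TTCNNNGAA was found in windows of Tnfrsf1a, Tnfrsf1b and Nfkb2 and in 8.3% of all windows.

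The genes whose levels over the 8 libraries were most like those of Tnfaip3 were H2az2, a histone variant gene (Pearson r = 0.989), Samd8 (r = 0.988), Gucy2f, a guanylate cyclase gene of photoreceptors (r = 0.988), Epb41l5 (r = 0.984) and Rax, a homeobox gene of the developing and adult retina (r = 0.984). These 5 were the highest of all tested genes, and the correlation rests in large part on the gap between the groups. All 5 fell in limma, with adjusted p between 0.00576 and 0.0140. Without AAV2-shCX36 1 and 4 only Rax of the 5 was called, the others having adjusted p in limma of 0.0565 to 0.125, and Samd8 was not called without AAV2-shCX36 2 (adjusted p in limma 0.0528). Rax, for example, averaged 23.2 ± 2.49 FPKM in AAV2-shCX36 and 40.9 ± 4.90 FPKM in AAV2-scramble (SD, n = 4 each).

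Transcripts of several retinal cell types were, like Tnfaip3, lower in AAV2-shCX36. Of 10 photoreceptor markers 9 fell and none rose. Of 8 Müller glia markers 5 fell and none rose, with summed levels of 209 to 333 FPKM in AAV2-shCX36, against 455 to 773 FPKM in AAV2-scramble. Over all tested genes 2.52% fell and 2.24% rose. None of these markers was at 0 in any library. In bulk RNA, fewer cells of a type and less RNA per cell cannot be told apart, and the part of either list in the Tnfaip3 result was not tested. None of the photoreceptor, Müller glia and microglia sums shared the order of Tnfaip3 among the controls. Tnfaip3 was highest in AAV2-scramble 2 and lowest in AAV2-scramble 1. The photoreceptor sum was highest in AAV2-scramble 3 and lowest in AAV2-scramble 1. For Müller glia these were AAV2-scramble 2 and AAV2-scramble 3, and for microglia AAV2-scramble 1 and AAV2-scramble 4.

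**Figure D2:**
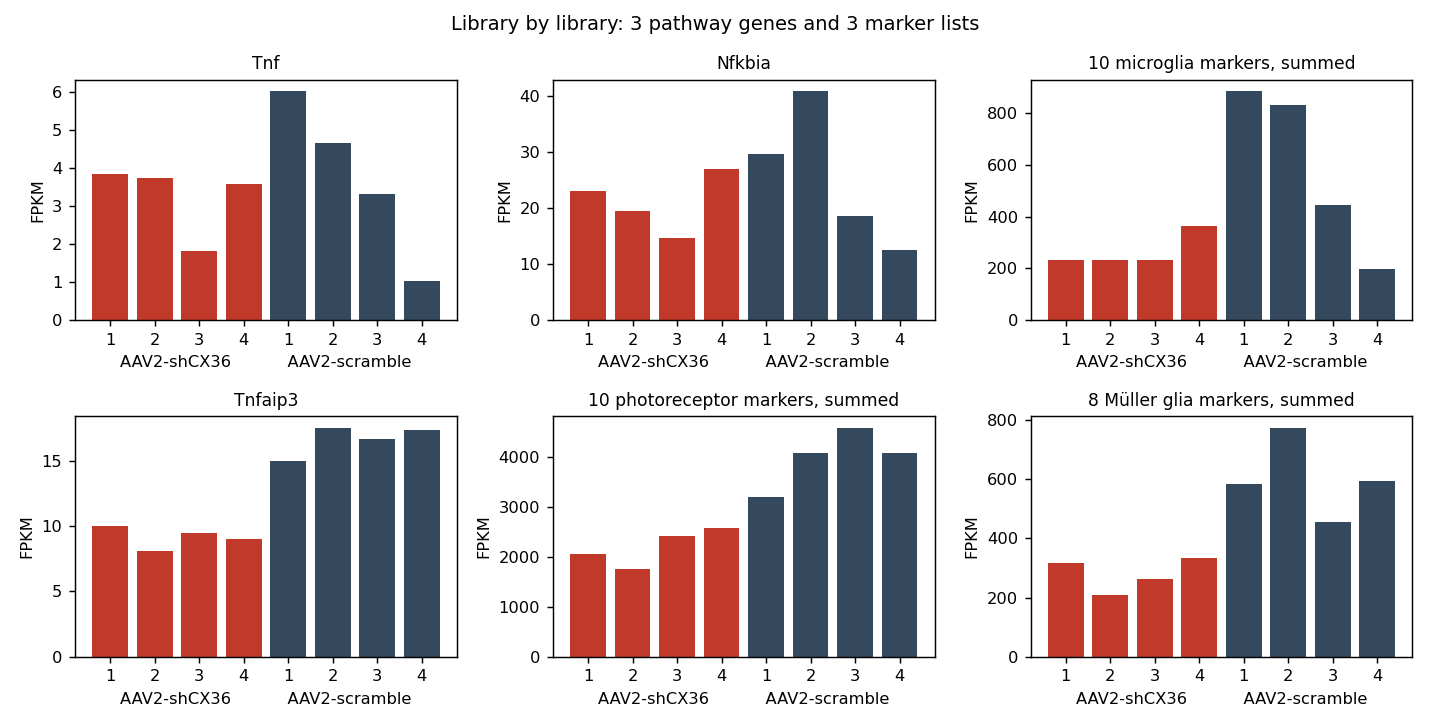
FPKM in each library of Tnf, Nfkbia and Tnfaip3 and the summed FPKM of 10 microglia, 10 photoreceptor and 8 Müller glia markers, with AAV2-shCX36 libraries 1 to 4 on the left and AAV2-scramble libraries 1 to 4 on the right of each panel. Tnf and Nfkbia are highest in AAV2-scramble 1 or 2 and lowest in AAV2-scramble 4, as are the microglia markers, whereas Tnfaip3 lies between 15.0 and 17.5 FPKM in the AAV2-scramble libraries and between 8.10 and 10.01 FPKM in the AAV2-shCX36 libraries.

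Tnf itself was a low to moderate transcript, and its groups overlapped. The gene, a ligand made as a membrane protein and cut free by a protease, lies on chromosome 17 from 35199381 to 35202007. It had 3.86, 3.75, 1.82 and 3.59 FPKM in AAV2-shCX36 libraries 1 to 4, against 6.03, 4.67, 3.32 and 1.04 FPKM in AAV2-scramble libraries 1 to 4. The control libraries thus held both the highest and the lowest values, 5.80-fold apart. The log2 difference was -0.06 ± 0.36 (SE; 95% interval -0.87 to 0.75; adjusted p in limma 0.942). An interval of this width leaves room for a change of more than 1.5-fold in either direction on that scale.

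In both receptors AAV2-scramble 1 and 2 were above AAV2-scramble 3, which was above AAV2-scramble 4. TNFR1 is encoded on chromosome 6 from 125349362 to 125362484 and TNFR2 on chromosome 4 from 145213463 to 145246870. Tnfrsf1a had 8.17, 4.51, 4.89 and 6.63 FPKM in AAV2-shCX36 libraries 1 to 4, against 7.58, 9.70, 5.35 and 2.47 FPKM in AAV2-scramble libraries 1 to 4. Tnfrsf1a averaged 6.05 ± 1.69 FPKM in AAV2-shCX36 and 6.27 ± 3.10 FPKM in AAV2-scramble (SD, n = 4 each), with a log2 difference of 0.04 (95% interval -0.69 to 0.77; adjusted p in limma 0.955). Tnfrsf1b had 2.66, 2.00, 2.39 and 3.63 FPKM in AAV2-shCX36 libraries 1 to 4, against 5.57, 5.32, 2.70 and 1.14 FPKM in AAV2-scramble libraries 1 to 4. For Tnfrsf1b, AAV2-scramble 1 and 2 lay above all AAV2-shCX36 libraries and AAV2-scramble 4 below all of them, and the log2 difference was -0.23 (95% interval -0.99 to 0.53; adjusted p in limma 0.723).

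Among the NF-kB subunits, Nfkb1 and Rela, which form the classical p50-p65 dimer, were the more abundant. Nfkb1 lies on chromosome 3 from 135584655 to 135691547 and Rela on chromosome 19 from 5637483 to 5648130. Nfkb1 had 11.5, 10.9, 11.8 and 12.8 FPKM in AAV2-shCX36 libraries 1 to 4, against 16.6, 20.0, 13.1 and 10.8 FPKM in AAV2-scramble libraries 1 to 4. The AAV2-shCX36 values lay within 1.17-fold of one another, below 3 of the 4 controls and above AAV2-scramble 4. The log2 difference of Nfkb1 was -0.31 (95% interval -0.67 to 0.05; adjusted p in limma 0.289). Rela, the subunit with the main activating domain, had 9.38, 7.71, 9.51 and 9.60 FPKM in AAV2-shCX36 libraries 1 to 4, against 12.9, 13.8, 8.35 and 5.77 FPKM in AAV2-scramble libraries 1 to 4. Its control libraries fell on both sides of the AAV2-shCX36 libraries, and the log2 difference was -0.09 (95% interval -0.61 to 0.42; adjusted p in limma 0.843).

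Relb and Nfkb2, the pair of the alternative pathway, were near or below 1 FPKM and had means that were higher in AAV2-shCX36. Relb had 1.19, 1.05, 1.35 and 1.04 FPKM in AAV2-shCX36 libraries 1 to 4, against 1.27, 0.990, 0.663 and 0.841 FPKM in AAV2-scramble libraries 1 to 4. AAV2-scramble 1 lay inside the AAV2-shCX36 range and the other controls below it, and the log2 difference was 0.16 (95% interval -0.13 to 0.45; adjusted p in limma 0.488). Nfkb2 had 0.820, 0.655, 0.565 and 0.570 FPKM in AAV2-shCX36 libraries 1 to 4, against 0.461, 0.614, 0.317 and 0.164 FPKM in AAV2-scramble libraries 1 to 4. AAV2-scramble 2 lay inside the AAV2-shCX36 range, and the log2 difference of 0.26 had a two-sided exact permutation p of 0.0857. Exons of Nfkb2 share 299 bases with Psd, a gene on the opposite strand with a mean of 31.5 FPKM. The sources used here do not say whether reads were counted by strand, so reads of Nfkb2 and Psd cannot be told apart over these bases.

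Of the feedback genes other than Tnfaip3, Nfkbia was the most abundant of all 10 genes. It had 23.1, 19.4, 14.6 and 27.0 FPKM in AAV2-shCX36 libraries 1 to 4, against 29.6, 40.8, 18.5 and 12.4 FPKM in AAV2-scramble libraries 1 to 4. The controls again spanned the AAV2-shCX36 range on both sides, and the log2 difference was -0.16 (95% interval -0.91 to 0.58; adjusted p in limma 0.809). Birc3, which encodes the ubiquitin ligase cIAP2 of the TNF receptor complex, had 0.875, 0.660, 0.652 and 0.765 FPKM in AAV2-shCX36 libraries 1 to 4, against 1.19, 1.17, 0.584 and 0.220 FPKM in AAV2-scramble libraries 1 to 4. Its means differed little beside a 5.44-fold range among the controls (two-sided exact permutation p = 1).

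By mean level over the 8 libraries the order was Nfkbia, Nfkb1, Tnfaip3, Rela, Tnfrsf1a, Tnf, Tnfrsf1b, Relb, Birc3 and Nfkb2. Nfkbia exceeded Nfkb1 in 8 of 8 libraries, and Rela exceeded Tnfrsf1a in 8 of 8. Tnf exceeded Tnfrsf1b in 4 of 8 libraries, so these neighbours could not be ordered. Nfkb1 exceeded Tnfaip3 in all 4 AAV2-shCX36 libraries, with separate ranges, and in 2 of the 4 AAV2-scramble libraries. Nfkb1 and Tnfaip3 averaged 11.7 and 9.16 FPKM in AAV2-shCX36, against 15.1 and 16.6 FPKM in AAV2-scramble, so the order of their means differed between the groups. Tnfaip3 exceeded Rela in 6 of 8 libraries, with overlapping ranges in AAV2-shCX36 and separate ranges in AAV2-scramble.

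The genes other than Tnfaip3 varied more among the controls than among the AAV2-shCX36 libraries, as did 75.4% of all tested genes by log2 SD. AAV2-scramble 4 was the lowest of the 8 libraries in 8 of the 10 genes, against 21.3% of all tested genes. AAV2-scramble 1 and 2 were both above all other libraries in 6 of the 10, Tnf, Tnfrsf1b, Nfkb1, Rela, Nfkbia and Birc3, against 19.6% of all tested genes. The median SD on the log2(FPKM + 1) scale was 0.13 in AAV2-shCX36 and 0.47 in AAV2-scramble for the 10 genes, and 0.10 in AAV2-shCX36 and 0.16 in AAV2-scramble for all tested genes. For Tnf, Tnfrsf1a, Tnfrsf1b, Rela, Nfkbia and Birc3, the mean log2 level in AAV2-shCX36 lay between that of AAV2-scramble 1 and 2 and that of AAV2-scramble 3 and 4, which was the case in 25.6% of all tested genes. Nfkbia, for example, had log2 differences of -0.73 against AAV2-scramble 1 and 2 and 0.41 against AAV2-scramble 3 and 4. The microglia sums ordered the controls in nearly the same way, endothelial and pericyte markers (none of 7 called) summed to between 62.7 and 127 FPKM in AAV2-shCX36, against 27.6 to 149 FPKM in AAV2-scramble, and the part of these cells in the spread was not tested.

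**Figure D3:**
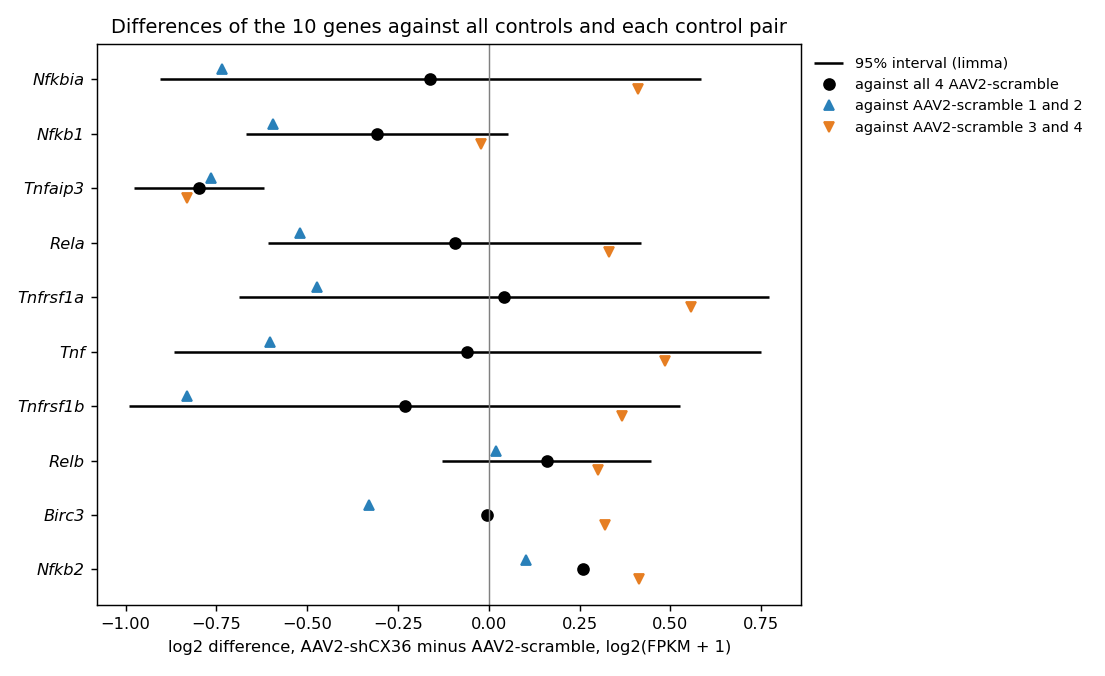
Log2 differences of the 10 genes, AAV2-shCX36 minus AAV2-scramble, against all 4 controls (black points, with the 95% interval from limma for the 8 tested genes), against AAV2-scramble 1 and 2 (blue) and against AAV2-scramble 3 and 4 (orange). The 3 values of Tnfaip3 lie between -0.83 and -0.76, whereas those of Tnf run from -0.60 to 0.49.

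Whether some of the other genes were called depended on which control libraries were kept. Without AAV2-scramble 3 and 4 the genes called lower were 5 of 8, namely Tnfaip3, Tnfrsf1b, Nfkb1, Rela and Nfkbia, where 14.8% of all tested genes were called lower. Without AAV2-scramble 1 and 2 only Tnfaip3 was called among the 8, and the differences of Tnfrsf1b, Rela and Nfkbia were positive. These omissions were chosen with the order of the controls known. Leaving out AAV2-scramble 3 and 4 kept the controls in which Tnfrsf1b, Nfkb1, Rela and Nfkbia were highest.

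The wider pathway was read through 7 lists holding 112 other genes, of which 109 matched the table and 72 were tested. Of the 72 genes 5 rose and 2 fell in AAV2-shCX36, where 2.24% of all tested genes rose and 2.52% fell. An unadjusted p under 0.05 in limma was reached by 16 of the 72, against 22.6% of all tested genes. The 5 that rose were all in the list of inflammatory target genes, and the 2 that fell were a receptor-proximal inhibitor of cell death and a feedback gene. Among those that rose, Il1b and Ccl5 reached the filter on low values only through AAV2-shCX36.

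Of the TNF-family ligands and shedding factors 7 were tested and none was called in limma, with 2 at an unadjusted p under 0.05 and a median log2 difference of -0.26. Tnfsf12, the gene of the cytokine TWEAK, had 13.6 ± 1.93 FPKM in AAV2-shCX36 and 18.02 ± 2.05 FPKM in AAV2-scramble (SD, n = 4 each; adjusted p in limma 0.0953). The other was Tnfsf10, the gene of the death ligand TRAIL, named after its values were seen and higher in AAV2-shCX36. Tnfsf10 had 4.95, 1.91, 1.02 and 1.49 FPKM in AAV2-shCX36 libraries 1 to 4, against 0.729, 0.885, 0.389 and 0.104 FPKM in AAV2-scramble libraries 1 to 4. Its groups did not overlap, and the log2 difference was 1.03 ± 0.32 (SE; adjusted p in limma 0.107). With a mean of 0.527 FPKM in AAV2-scramble, Tnfsf10 reached the filter only through AAV2-shCX36. Of the other TNF receptor family genes 7 were tested and none was called, with 1 at an unadjusted p under 0.05 and a median of 0.23. That gene was Tnfrsf21, which encodes death receptor 6 and had 17.1 ± 1.41 FPKM in AAV2-shCX36 and 14.3 ± 1.27 FPKM in AAV2-scramble (SD, n = 4 each; adjusted p in limma 0.132).

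Of 17 tested genes of receptor-proximal signalling 1 fell and none rose, with a median log2 difference of -0.00. Xiap, an inhibitor of caspases, had 7.16, 7.36, 8.20 and 7.44 FPKM in AAV2-shCX36 libraries 1 to 4, against 8.86, 9.95, 10.98 and 9.34 FPKM in AAV2-scramble libraries 1 to 4. The groups of Xiap did not overlap, and the log2 difference was -0.33 ± 0.08 (SE; adjusted p in limma 0.0472), close to the threshold. None of the 5 tested genes of the kinase complex that frees NF-kB was called in limma or reached an unadjusted p under 0.05. Ikbkg, its regulatory subunit NEMO, had 5.21 ± 0.374 FPKM in AAV2-shCX36 and 5.65 ± 0.312 FPKM in AAV2-scramble (SD, n = 4 each; adjusted p in limma 0.475).

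None of 7 tested genes for the subunit Rel and other IkB proteins was called in limma, with 1 at an unadjusted p under 0.05 and a median of 0.00. That gene was Bcl3, which encodes a nuclear IkB protein that works with p50 and p52 homodimers, and it missed the threshold narrowly. Bcl3 had 4.75, 3.16, 2.55 and 1.90 FPKM in AAV2-shCX36 libraries 1 to 4, against 1.38, 1.43, 0.586 and 0.264 FPKM in AAV2-scramble libraries 1 to 4. Its groups did not overlap, and the log2 difference was 1.10 ± 0.27 (SE; adjusted p in limma 0.0504). With a mean of 0.917 FPKM in AAV2-scramble, Bcl3 reached the filter only through AAV2-shCX36. Bcl3 was called in 5 of 21 alternatives, over which its adjusted p was 0.0152 to 0.207.

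Of 11 tested feedback genes outside the 10, 1 fell and none rose, with a median log2 difference of 0.01. Otud7b encodes Cezanne, a deubiquitinase that restrains NF-kB signalling. It had 12.9, 12.5, 13.4 and 12.4 FPKM in AAV2-shCX36 libraries 1 to 4, against 14.7, 19.1, 20.8 and 17.3 FPKM in AAV2-scramble libraries 1 to 4. The groups of Otud7b did not overlap, with a log2 difference of -0.45 ± 0.10 (SE; adjusted p in limma 0.0368). Neither Xiap nor Otud7b was called when any 1 AAV2-shCX36 library, AAV2-scramble 2 or AAV2-scramble 3 was left out. Over these omissions the adjusted p in limma was 0.0770 to 0.140 for Xiap and 0.0715 to 0.112 for Otud7b.

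**Figure D4:**
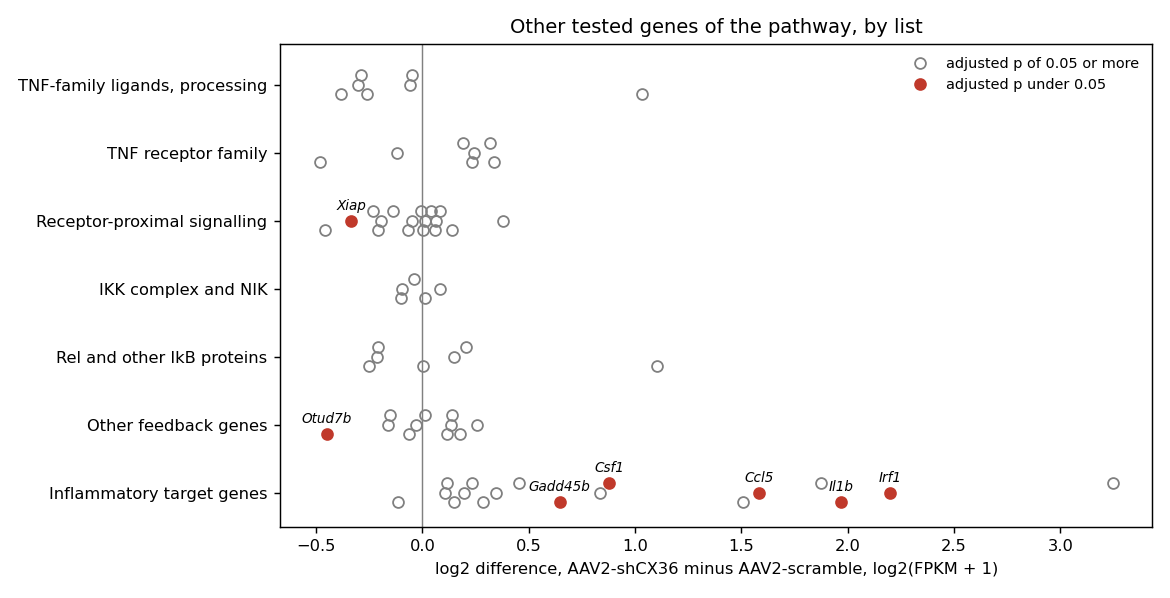
Log2 differences (AAV2-shCX36 minus AAV2-scramble) of the 72 tested pathway genes outside the 10, with 1 row per list and 1 point per gene. Filled points have an adjusted p under 0.05 in limma, and the 5 on the right of zero are all inflammatory target genes.

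The calls that were higher in AAV2-shCX36 were all inflammatory target genes of NF-kB. Of 18 tested genes 5 rose and none fell, where 2.24% of all tested genes rose. Positive differences were found in 17 of 18, and the median log2 difference was 0.55, against 0.01 over all tested genes. In 8 of 18 the AAV2-shCX36 libraries were all above the controls, against 8.85% of all tested genes. Il1b, Ccl5 and Cxcl10, counted here, averaged 0.608, 0.687 and 0.979 FPKM in AAV2-scramble. They reached the filter of 1 FPKM only through AAV2-shCX36, so their place in these counts depends on their higher values there. With a filter of 5 FPKM the pathway genes called higher were 2, Gadd45b and Irf1. Irf1, Csf1, Il1b and Gadd45b had the smallest p, and Ccl5, the remaining call, was named after its values were seen. Several of these genes, Irf1 and Ccl5 among them, are also induced by interferons. In the same libraries 18 of 18 interferon-stimulated genes rose, Irf1 being one of them, against 2.24% of all tested genes. Their summed levels were 1103 to 1896 FPKM in AAV2-shCX36, against 149.6 to 384 FPKM in AAV2-scramble. This list was written with earlier results of these data known, so its count is a description and not a test. The part of interferon signalling in the target genes was not tested.

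Irf1, a transcription factor downstream of both interferon-gamma and NF-kB, had 20.6, 15.7, 14.6 and 9.51 FPKM in AAV2-shCX36 libraries 1 to 4, against 3.26, 4.17, 1.58 and 1.35 FPKM in AAV2-scramble libraries 1 to 4. Its lowest AAV2-shCX36 library was above its highest control, with a log2 difference of 2.20 ± 0.29 (SE; adjusted p in limma 0.00661). Il1b, the gene of interleukin 1 beta, had 8.71, 3.52, 3.31 and 5.95 FPKM in AAV2-shCX36 libraries 1 to 4, against 1.00, 1.14, 0.182 and 0.109 FPKM in AAV2-scramble libraries 1 to 4. The groups of Il1b did not overlap, and the log2 difference was 1.97 ± 0.31 (SE; adjusted p in limma 0.0132).

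Csf1, the growth factor of microglia and macrophages, had 5.69, 5.67, 5.82 and 4.86 FPKM in AAV2-shCX36 libraries 1 to 4, against 2.45, 3.19, 2.70 and 1.91 FPKM in AAV2-scramble libraries 1 to 4. The AAV2-shCX36 libraries were close together and above all controls (log2 difference 0.88 ± 0.12, SE; adjusted p in limma 0.00675). Gadd45b, a stress gene that restrains JNK signalling, averaged 14.7 ± 1.89 FPKM in AAV2-shCX36 and 9.04 ± 1.53 FPKM in AAV2-scramble (SD, n = 4 each; log2 difference 0.65 ± 0.12, SE; adjusted p in limma 0.0226). Ccl5, a chemokine for T cells and monocytes, averaged 4.37 ± 2.11 FPKM in AAV2-shCX36 and 0.687 ± 0.374 FPKM in AAV2-scramble (SD, n = 4 each; log2 difference 1.58, adjusted p in limma 0.0300). Irf1, Il1b and Csf1 were called with any 1 library left out. Gadd45b was not called without AAV2-shCX36 1, 2 or 4 or without AAV2-scramble 1 or 3, with adjusted p in limma of 0.0504 to 0.0722. Ccl5 was not called without AAV2-shCX36 1, 3 or 4 or without AAV2-scramble 2 or 3.

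**Figure D5:**
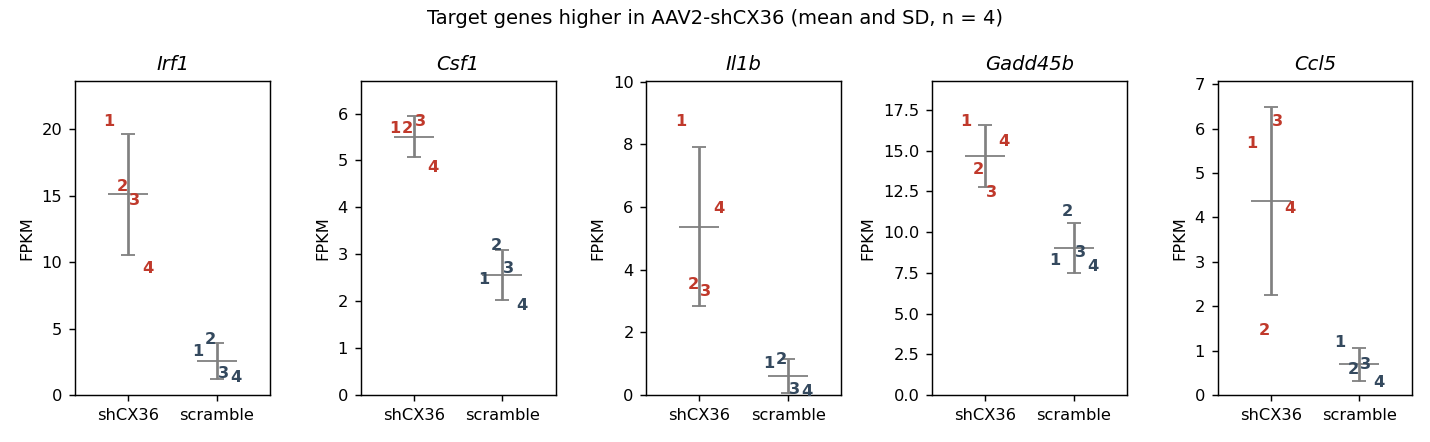
FPKM of the 5 target genes that rose, with AAV2-shCX36 left of AAV2-scramble, digits giving the library number and grey marks the mean and SD of each group (n = 4). In each panel the lowest AAV2-shCX36 library is above the highest AAV2-scramble library.

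Of the target genes that were not called, 3 had groups that did not overlap, and each of these was highest in AAV2-shCX36 1. Lcn2, Cxcl10 and Vcam1, named after their values were seen, had 354, 18.8 and 19.4 FPKM in AAV2-shCX36 1 and at most 49.7, 4.59 and 4.47 FPKM in the other AAV2-shCX36 libraries, against at most 11.96, 1.72 and 2.17 FPKM in AAV2-scramble. All 4 AAV2-shCX36 libraries were above every control in each of them, and their adjusted p in limma were 0.0796, 0.0605 and 0.0804. Vcam1 was called higher when AAV2-shCX36 1 was left out, and Cxcl10 under quantile normalization and without AAV2-scramble 1 and 2, whereas Lcn2 was called in none of the alternatives run. AAV2-shCX36 1 and 4 also held the most lens transcript, with 7 lens markers summing to between 13.9 and 323 FPKM in AAV2-shCX36, against 0.662 to 15.5 FPKM in AAV2-scramble, and with Cryba1 and Mip at 0 in some libraries. Icam1, a classical TNF target of endothelium, had 4.99, 2.84, 2.58 and 3.11 FPKM in AAV2-shCX36 libraries 1 to 4, against 4.31, 3.85, 2.15 and 0.906 FPKM in AAV2-scramble libraries 1 to 4 (adjusted p in limma 0.630). Icam1 was also named after its values were seen.

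Markers of blood leukocytes were low in all libraries and higher in sum in AAV2-shCX36. The 12 markers summed to between 7.09 and 11.3 FPKM in AAV2-shCX36, against 1.69 to 6.95 FPKM in AAV2-scramble. Of these, 3 were tested and 1 rose, the monocyte gene Ly6c2, where 2.24% of all tested genes rose. With a mean of 0.0519 FPKM in AAV2-scramble, Ly6c2 reached the filter only through AAV2-shCX36. Much of the gap in the sums came from Ly6c2, and the sums of the other markers overlapped between the groups. Several of these markers, named after their values were seen, moved with the target genes. The T cell genes Cd3e and Cd3g had 0.0351 to 0.193 FPKM and 0.159 to 0.442 FPKM in AAV2-shCX36, and both were listed at 0 in all 4 AAV2-scramble libraries. Nkg7, a gene of cytotoxic lymphocytes, had 0.360 to 1.08 FPKM in AAV2-shCX36 and was also listed at 0 in all 4 AAV2-scramble libraries. Ly6c2 had 1.90 to 4.20 FPKM in AAV2-shCX36, against 0 to 0.151 FPKM in AAV2-scramble, with the 0 in AAV2-scramble 4. The monocyte receptor gene Ccr2 was above 0 in every AAV2-shCX36 library and listed at 0 in AAV2-scramble 1 and 3. Cd4, Ms4a1 and S100a8 were at 0 in at least 1 library, and their groups overlapped. The part of these cells in the higher target genes was not tested. Without AAV2-shCX36 1 and 4 the count of target genes that rose was 1, Irf1.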

How the data were processed

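Per the labels' protocols, total RNA of mouse retina was extracted with an RNeasy Micro kit and read in paired ends on a NovaSeq instrument. The submitters' processing notes name fastp, HISAT2, HTSeq, R 3.2.0 and DESeq2 and the builds GRCm38 and mm10, without giving the role of each. The authors deposited FPKM for 24860 gene symbols in 8 libraries, and 0 value columns were left unmatched to a sample. No step of FPKM estimation is given in the sources used here. Sample titles gave the group and replicate number, and they write AAV2-scramble where the table writes AAV2-shscramble.

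Whole reads could not be recovered from the FPKM. At the best single depth per library, between 24.2% and 34.6% of low values of single-exon genes came out whole within 0.05, so no count model was run and no counting interval is given. The depth is therefore not known.

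For the 12858 genes whose mean over the 8 libraries reached 1 FPKM, log2(FPKM + 1) was fitted in limma 3.58.1 (R 4.3.3; lmFit, eBayes with trend) with no covariate. The threshold was a Benjamini-Hochberg adjusted p of 0.05. A two-sided exact permutation test with all 70 relabellings was run for single genes. On simulated data with 12858 genes, 76% of 50 genes changed 1.5-fold, 90% of those changed 2-fold and 94% of those changed 4-fold were recovered, with 11 unchanged genes among 191 calls. The simulation changed only genes well above the filter and gave both groups the same spread. These shares therefore do not apply to genes near the filter, such as Relb, or to genes that varied more among the controls.

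The members and lists were chosen with earlier results of these data known. From each pathway list, up to 4 called genes with the smallest p are named, or the gene with the smallest p where none was called. The 5 genes most like the member with the smallest p were taken by Pearson r. Positions are from GENCODE M21 (GRCm38) and promoter windows from RefSeq on GRCm38.p6. Alternatives were pseudocounts of 0.1 and 0.5, filters of 0 and 5 FPKM, median-of-ratios, quantile and TPM scaling, other variance models, library weights, a replicate block and omitted libraries. Pairs of omitted libraries were added after seeing the data.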

Additional observations from a re-analysis of the deposited data

Results flagged for a closer look

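In a group of 4 libraries, a value was singled out when its gap to the nearest other value took up a share of the range of the group above Dixon's critical value. 3 of 50 gene-by-group sets, over 25 genes, met this, and chance gives about 1 in 20. Tnf was 1.82 FPKM in AAV2-shCX36 3, where the other AAV2-shCX36 libraries had 3.59 to 3.86 FPKM. Rela was 7.71 FPKM in AAV2-shCX36 2, where the others had 9.38 to 9.60 FPKM. Csf1 was 4.86 FPKM in AAV2-shCX36 4, where the others had 5.67 to 5.82 FPKM.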

How the results depend on the processing

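Tnfaip3 fell in every alternative run, with log2 differences of -0.86 to -0.75 and adjusted p in limma of 0.00106 to 0.0250, and no other member was called under any other scaling, filter, pseudocount, variance model or single omission. Without AAV2-scramble 3 and 4 the members called lower were 5. Pathway genes called higher, 5 with all libraries, were 2 with a filter of 5 FPKM and 3 to 5 with single libraries left out. Without AAV2-scramble 1 and 2 they were 11, and 1 when AAV2-shCX36 1 and 4 were omitted. Pathway genes called lower, 2 with all libraries, were 0 with no filter and 0 without AAV2-shCX36 1 and 4. They were 1 with median-of-ratios, quantile or TPM scaling or no trend, 14 without AAV2-scramble 3 and 4, and 0 to 2 with single libraries left out. With the replicate block they were 0, and of the 5 genes most like Tnfaip3 only H2az2 was called under it, the others having adjusted p of 0.0527 to 0.0875. Same-numbered libraries did not deviate together (correlations of 0.128, -0.302, 0.226 and -0.269), so the numbers were not taken as pairs; the block moved the calls over all genes to 107 higher and 57 lower, where 288 and 324 were called without it, and not every library correlated best with its own number. The cause of these shifts was not tested.

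Over the 10 genes and their alternatives, 23 of 205 differences had the opposite sign to that with all libraries and settings kept, none of them of Tnfaip3. Without AAV2-scramble 1 and 2 they were 0.49 for Tnf, 0.37 for Tnfrsf1b, 0.33 for Rela, 0.41 for Nfkbia and 0.32 for Birc3. Tnfrsf1a had -0.47 when AAV2-scramble 3 and 4 were omitted and -0.23 when AAV2-shCX36 1 and 4 were. For Birc3 they were 0.11, 0.019 and 0.052 with pseudocounts of 0.1 and 0.5 and TPM scaling. With single libraries left out, Tnf ranged from -0.42 to 0.17, Tnfrsf1a from -0.28 to 0.27, Rela from -0.31 to 0.063, Nfkbia from -0.44 to 0.10 and Birc3 from -0.18 to 0.11. Nfkb2, Birc3 and Relb were near or below 1 FPKM, and with the depth unknown no counting error can be given for them.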
